A study of Homo sapiens with 8 samples.

Results

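The genes described here form the lysosomal module of 2 cholangiocarcinoma (CCA) cell lines: 44 genes that encode lysosomal hydrolases, lysosomal membrane proteins, subunits of the vacuolar proton pump (V-ATPase) and the transcription factors and small GTPases that control lysosome formation. A gene was kept when its symbol was listed for both lines and it reached 1 TPM or more in at least 2 of the 8 libraries. TPM is the share of a library's transcripts that a gene takes, corrected for transcript length and scaled to a common total. All 44 genes met the rule, among 16060 tested of 56269 genes in the tables. They comprised 6 regulators, 5 membrane proteins, 16 hydrolases, 3 lumenal cofactors and 14 V-ATPase genes (5 of the membrane-embedded V0 sector, 7 of the cytosolic V1 sector and 2 accessory subunits).

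RNA was sequenced from SNU1079 and SSP25, both human CCA cell lines, after 48 hours in 4 conditions. The vehicle was 0.01% DMSO, BETp was 40 nM ARV825, mTORi was 50 nM AZD8055, and BETp + mTORi was both agents together, for which the labels state no doses. ARV825 is a proteolysis-targeting chimera through which cereblon, part of a ubiquitin ligase, marks BET proteins, which bind acetylated chromatin, for destruction. AZD8055 inhibits the mTOR kinase in both of its complexes. The labels give the genotype of every library as wildtype, and the study lists IDH1 and ARID1A mutations for SNU1079. There was 1 library for each line and condition, so the cell lines stood as the replicates of a treatment, and the 4 treatments stood as the libraries of a line. The averaged drug comparisons and the line comparison came from 1 fit with a shared residual (4 residual degrees of freedom). It pools how drug effects vary between the 2 lines with how far the 2 drugs depart from a sum. Pairwise drug comparisons, with 3 degrees of freedom, measure the spread of treatment differences between the 2 lines. Line differences in a drug effect, with 2, are set only against departures of the 2 drugs from a sum. None of these p-values measures the spread between separate cultures, of which the labels name none. The libraries of each line came in a table of their own, so that line and processing table cannot be told apart.

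Lysosomes are acidic organelles in which hydrolases degrade proteins, lipids, glycans and nucleic acids delivered by endocytosis and autophagy. The V-ATPase pumps protons into the lumen, where the acidity activates the hydrolases. mTORC1 is recruited to the lysosomal surface by Rag GTPases when amino acids are plentiful, and there phosphorylates TFEB and TFE3, which holds these transcription factors in the cytosol. Inhibition of mTORC1 allows them to enter the nucleus and to bind an E-box-like element, termed CLEAR, near the start of many lysosomal genes.

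The stretches below show this element in the 9 member promoters that held it with a flanking base, because TFEB and TFE3 are known to bind elements of this form; their binding was not measured here. They were read from RefSeq windows (GRCh38.p14) that run from 250 bases before to 50 after each annotated start. Each stretch lies upstream of the start, is written 5′ to 3′ on the strand of its gene, and has the palindrome CACGTG in capitals.
MCOLN1 (chr19:7522571-7522623, plus strand): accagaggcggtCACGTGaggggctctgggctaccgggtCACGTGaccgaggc
LAMP1 (chr13:113297035-113297114, plus strand): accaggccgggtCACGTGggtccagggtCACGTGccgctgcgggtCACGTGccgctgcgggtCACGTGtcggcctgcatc
CTSD (chr11:1763957-1763986, minus strand): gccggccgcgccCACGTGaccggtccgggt
CTSA (chr20:45891281-45891327, plus strand): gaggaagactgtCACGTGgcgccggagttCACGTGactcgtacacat
GAA (chr17:80101493-80101567, plus strand): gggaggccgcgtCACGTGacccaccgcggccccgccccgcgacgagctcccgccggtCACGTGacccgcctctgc
NEU1 (chr6:31862930-31862959, minus strand): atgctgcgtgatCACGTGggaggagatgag
ATP6V0B (chr1:43974891-43974938, plus strand): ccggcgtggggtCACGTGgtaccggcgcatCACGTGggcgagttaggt
ATP6V0D1 (chr16:67481199-67481228, minus strand): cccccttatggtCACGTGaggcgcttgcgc
RRAGC (chr1:38859867-38859896, minus strand): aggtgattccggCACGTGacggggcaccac

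MCOLN1 and GAA carried a pair of boxes each, as did CTSA and ATP6V0B, and LAMP1 carried 6, of which 4 lie in the stretch shown. Windows were listed for 32 of the 44 genes (46 windows, since 6 genes had several starts). CACGTG was found in 10 of the 46 windows (21.7%), against 9.32% of 15197 windows of all tested genes. The flanked forms TCACGTG or CACGTGA, searched on both strands and overlapping the shorter motif by construction, were found in 9 (19.6%), against 5.38%. CD63 held the 6-letter motif alone. No window was listed for RRAGD, LAMP2, CTSB, HEXA, NAGLU, SGSH, PSAP, ATP6V0E1, ATP6V1A, ATP6V1B2, ATP6V1C1 and ATP6V1H. A match of letters is a description and does not show that a factor bound there.

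**Figure D1:**
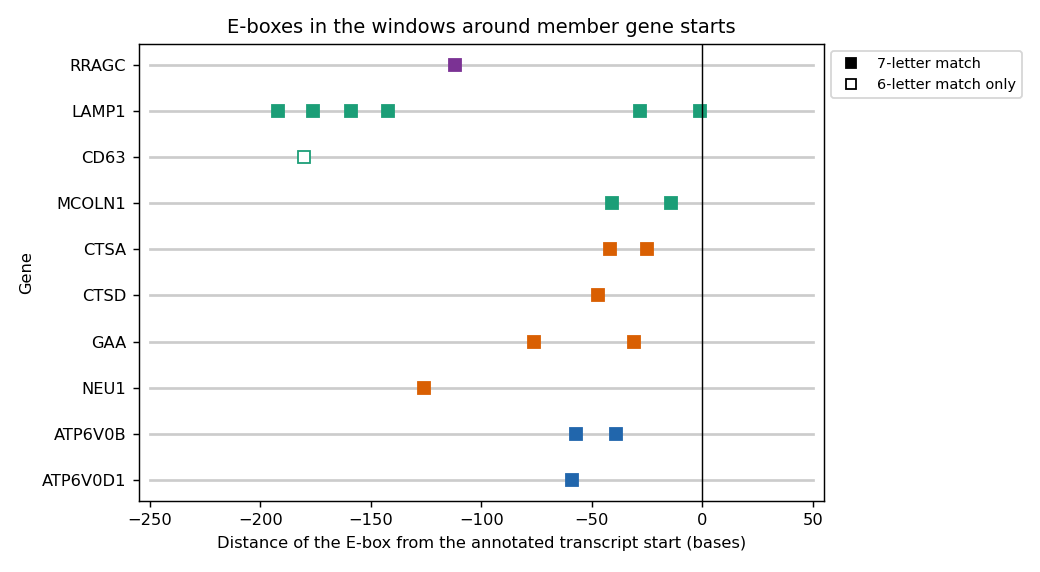
Positions of the CACGTG palindrome in the windows of the 10 member genes that held it, as the distance in bases of its first base from the annotated transcript start; filled squares mark genes whose window also held TCACGTG or CACGTGA, the open square a gene with the 6-letter motif alone. The boxes lie from -192 to -1, and LAMP1 holds 6 of them.

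TPM values of each library summed to between 998559 and 999362. A TPM table keeps no sequencing depth, so that the counting error behind a value is unknown. Both lines expressed the keratins of biliary epithelium, with KRT7 at 404 to 3746 TPM and KRT19 at 307 to 1927 TPM over the 8 libraries. EPCAM was 59.7 to 101 TPM in SNU1079 and 0.90 to 1.74 TPM in SSP25. Of 6 biliary and epithelial markers, 5 were higher in SNU1079 and 1 lower. The lower one was SOX9, at 5.72 to 9.32 TPM in SNU1079 and 19.6 to 28.6 TPM in SSP25. ALB, which marks hepatocytes, did not exceed 0.21 TPM, and PTPRC, which marks leukocytes, did not exceed 0.24 TPM. SERPINA1, a hepatocyte marker, was 41.8 TPM with vehicle and 7.64 TPM with both agents in SNU1079, and COL1A1, a stromal collagen, 1003 and 272 TPM. CD68, a late endosomal glycoprotein abundant in macrophages, was 76.4 to 85.5 TPM in SNU1079 and 141 to 209.5 TPM in SSP25. CD14, a monocyte receptor, did not exceed 0.84 TPM in SNU1079 and was 13.9 to 32.4 TPM in SSP25. The share of TPM on mitochondrial transcripts was 14.4% to 19.2% in SNU1079 and 5.99% to 10.1% in SSP25, higher with each agent than in the matched library without it. The part of these line-specific levels in the lysosomal values was not tested.

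The 44 genes took 0.665% to 0.784% of all TPM in SNU1079 and 1.91% to 2.24% in SSP25, with no overlap between the lines. In SNU1079 the most abundant member was PSAP, the precursor of the saposins that present glycolipids to hydrolases, at a mean of 1659 TPM over 4 libraries. In SSP25 it was CTSD, the aspartic protease cathepsin D, at 6172 TPM, which made up 29.0% to 30.8% of the members' sum there and 7.2% to 8.03% in SNU1079. TFEB itself was the least abundant member of SNU1079 (8.88 TPM), and in SSP25 only MITF (3.25 TPM) was below TFEB (7.27 TPM). The median member stood at 70.8 to 89.5 TPM in SNU1079 and 175 to 210.2 TPM in SSP25.

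**Figure D2:**
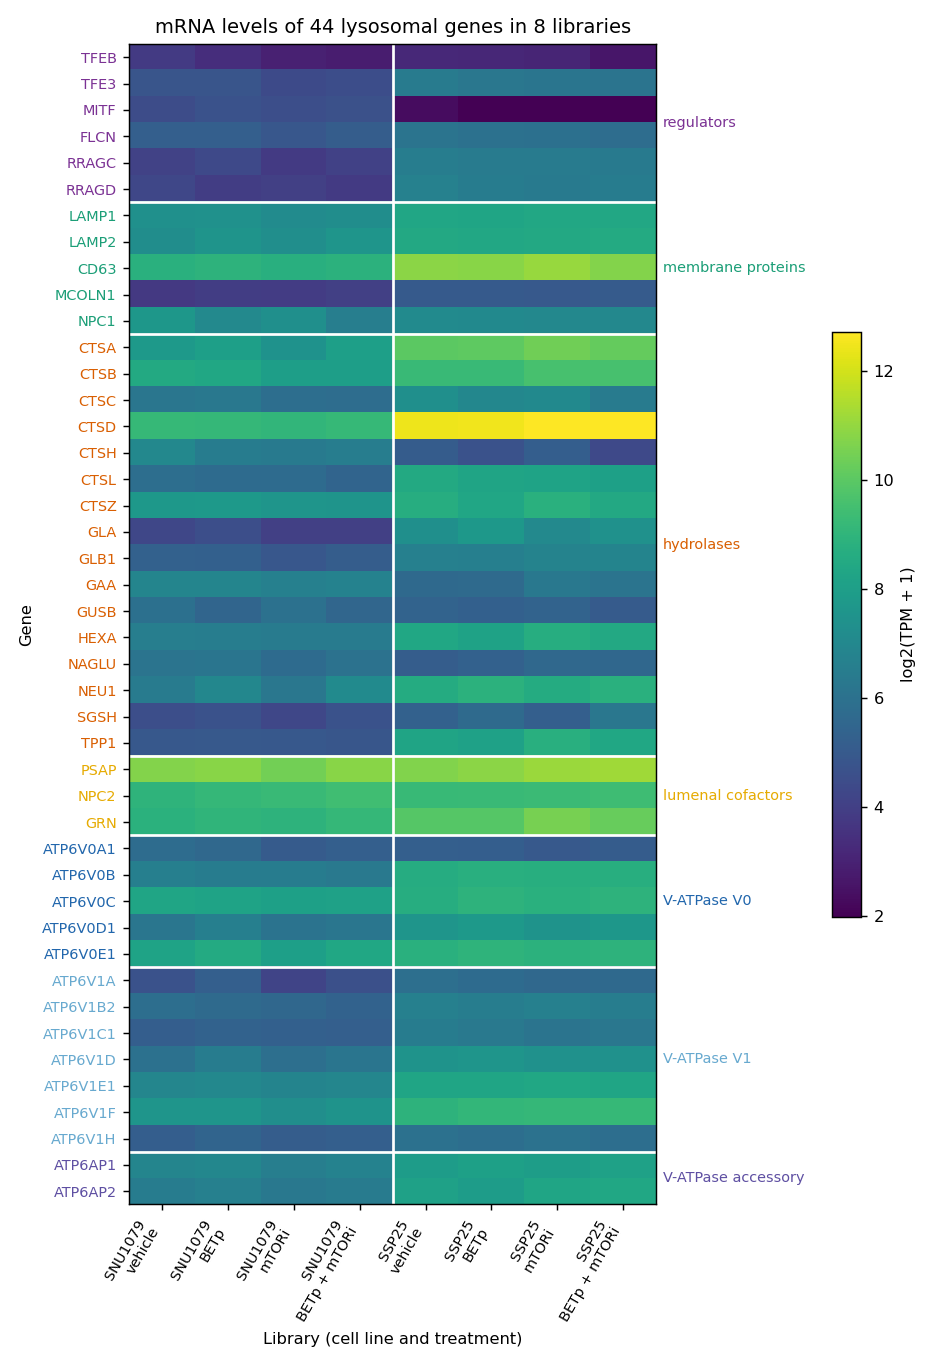
Levels of the 44 genes, as log2(TPM + 1), in the 8 libraries (columns, by cell line and treatment), with genes in rows by role. Most rows are brighter in the 4 SSP25 libraries, where CTSD has the highest level, while MITF, CTSH, GAA and NAGLU are brighter in SNU1079.

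The first comparison asked how the module differed between the cell lines, averaged over the 4 treatments. Lysosomal genes were mostly lower in SNU1079. In bulk RNA, fewer cells with a transcript and less of it per cell cannot be told apart. Of the 44 genes, 34 were lower and 6 higher in SNU1079 at an adjusted p below 0.05, tested with limma on log2(TPM + 1) with Benjamini-Hochberg adjustment over all 16060 genes. The lines differed widely at large, since 75.6% of all genes were called, 36.6% lower and 39.1% higher in SNU1079. The median difference of the members was -1.11 on the log2 scale, beside 0.05 for all genes. In 34 members every SNU1079 library was below every SSP25 library (30.8% of all genes had this pattern), in 5 every one was above (32.6%), and in 5 the ranges overlapped. Leaving out any library left 39 or 40 members called, and the only call ever lost was that of ATP6V0A1.

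Among the hydrolases, 12 of 16 were lower in SNU1079 and 4 were higher, with a median of -1.39. Values below are TPM in the order vehicle, BETp, mTORi and BETp + mTORi. CTSD was 581, 564, 534 and 574 in SNU1079 and 5520.4, 5809.6, 6738 and 6621 in SSP25. The lines did not overlap, and the ratio of their means was 11 (difference -3.45 ± 0.072 SE, limma adjusted p = 1.14e-08). TPP1, the tripeptidyl peptidase lost in a form of neuronal ceroid lipofuscinosis, was 29.8, 30.8, 29.2 and 27.6 in SNU1079 and 302, 275, 434 and 335 in SSP25. It had the largest difference of the 44, -3.46 ± 0.12 SE (limma adjusted p = 9.73e-08). GLA, the alpha-galactosidase deficient in Fabry disease, was 18.0, 22.6, 15.2 and 15.1 in SNU1079 and 161, 205, 129 and 168 in SSP25. Its means differed 9.36-fold (-3.15 ± 0.082 SE, limma adjusted p = 2.79e-08).

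CTSL, the cysteine protease cathepsin L, was 57.5, 51.7, 51.9 and 43.0 in SNU1079 and 357, 299.8, 294 and 269 in SSP25. It was 5.98-fold lower in SNU1079 and had the smallest SE of the 44 (-2.56 ± 0.057 SE, limma adjusted p = 1.55e-08). HEXA, the alpha subunit of beta-hexosaminidase, was 93.5, 91.5, 87.0 and 87.2 in SNU1079 and 329.5, 289, 405 and 351 in SSP25 (-1.91 ± 0.090 SE, limma adjusted p = 5.23e-07). The remaining lower hydrolases were CTSA, NEU1, GLB1, CTSB, SGSH, CTSZ and CTSC, with differences from -2.34 to -0.91. CTSA (protective protein/cathepsin A), NEU1 (sialidase) and GLB1 (beta-galactosidase) are held together in 1 lysosomal complex, and their differences were -2.34, -2.02 and -1.58.

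The 4 hydrolases that were higher in SNU1079 were CTSH, an aminopeptidase (1.77 ± 0.14 SE), GAA, the acid alpha-glucosidase that degrades glycogen (0.86 ± 0.14 SE), NAGLU, an enzyme of heparan sulphate breakdown (0.60 ± 0.13 SE), and GUSB, the beta-glucuronidase (0.44 ± 0.084 SE). CTSH was 127, 90.1, 82.8 and 91.7 TPM in SNU1079 and 33.4, 25.0, 35.6 and 19.2 TPM in SSP25, so that the lowest SNU1079 library was above the highest SSP25 library. SGSH, which acts in the same heparan sulphate pathway as NAGLU, had a difference of the other sign (-1.08 ± 0.14 SE, limma adjusted p = 0.000201). Neither call depended on any single library.

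The regulators differed in both directions. TFEB did not pass the test between lines (0.22 ± 0.12 SE, limma adjusted p = 0.137), with 13.1, 9.48, 6.88 and 6.05 TPM in SNU1079 and 8.38, 7.96, 7.57 and 5.16 TPM in SSP25. The ranges overlapped, and the highest value was that of SNU1079 with vehicle. TFE3, its close relative, was 27.2, 27.3, 20.1 and 21.8 TPM in SNU1079 and 86.0, 74.2, 69.7 and 67.4 TPM in SSP25, 3.08-fold lower in SNU1079 (-1.59 ± 0.079 SE, limma adjusted p = 6.62e-07). MITF, the family member known from melanocytes, was 21.1, 24.9, 22.3 and 23.7 TPM in SNU1079 and 4.06, 2.99, 3.0 and 2.94 TPM in SSP25. It was the 1 regulator called higher in SNU1079, 7.08-fold by the ratio of means (2.50 ± 0.12 SE, limma adjusted p = 4.86e-07).

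RRAGC and RRAGD encode the Rag GTPases that, paired with RagA or RagB, bring mTORC1 and TFEB to the lysosome. RRAGD was 18.4, 14.2, 15.0 and 12.9 TPM in SNU1079 and 102, 88.7, 83.8 and 88.6 TPM in SSP25 (-2.52 ± 0.084 SE, limma adjusted p = 9.52e-08). RRAGC was 15.9, 19.4, 13.0 and 15.5 TPM in SNU1079 and 90.4, 85.0, 85.3 and 83.0 TPM in SSP25 (-2.37 ± 0.094 SE, limma adjusted p = 2.15e-07). By their means, RRAGD was 6.0-fold and RRAGC 5.38-fold lower in SNU1079. FLCN, a GTPase-activating protein for RagC and RagD, was 1.80-fold lower (-0.83 ± 0.085 SE).

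All 4 called membrane proteins were lower in SNU1079. CD63, a tetraspanin of late endosomes, was 438, 482, 427 and 469 TPM in SNU1079 and 1828, 1772, 2124 and 1692 TPM in SSP25 (-2.02 ± 0.084 SE, limma adjusted p = 2.69e-07). LAMP1 and LAMP2, the abundant glycoproteins of the lysosomal membrane, differed by -1.07 and -1.05, and MCOLN1, the calcium channel mucolipin 1, by -1.13. NPC1, which exports cholesterol, did not pass the test (0.10 ± 0.14 SE), with overlapping ranges. Its lumenal partner NPC2 (-0.077 ± 0.061 SE) and PSAP (-0.27 ± 0.11 SE, limma adjusted p = 0.0592) did not pass either. GRN, which encodes progranulin, the precursor of the granulins, was 2.26-fold lower in SNU1079 (-1.16 ± 0.10 SE).

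Of the 14 V-ATPase genes, 13 were lower in SNU1079, with a median of -1.13. ATP6V0B, a proteolipid of the V0 ring, had the largest difference, with 97.4, 88.5, 89.8 and 79.0 TPM in SNU1079 and 392, 433, 418 and 419 TPM in SSP25 (-2.22 ± 0.074 SE, limma adjusted p = 9.25e-08). ATP6V1E1, a stalk subunit, was 119, 128, 114 and 118 TPM in SNU1079 and 314, 313, 333 and 308 TPM in SSP25 (-1.40 ± 0.062 SE, limma adjusted p = 3.48e-07). All 7 V1 genes were lower, by -0.67 (ATP6V1H) to -1.61 (ATP6V1F), and so were the accessory subunits ATP6AP1 (-1.23) and ATP6AP2 (-1.70). ATP6V0A1, one of the isoforms that places the pump in a membrane, was called higher in SNU1079 (0.28 ± 0.10 SE, limma adjusted p = 0.0357), with overlapping ranges, and lost the call when any of 6 single libraries was left out.

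**Figure D3:**
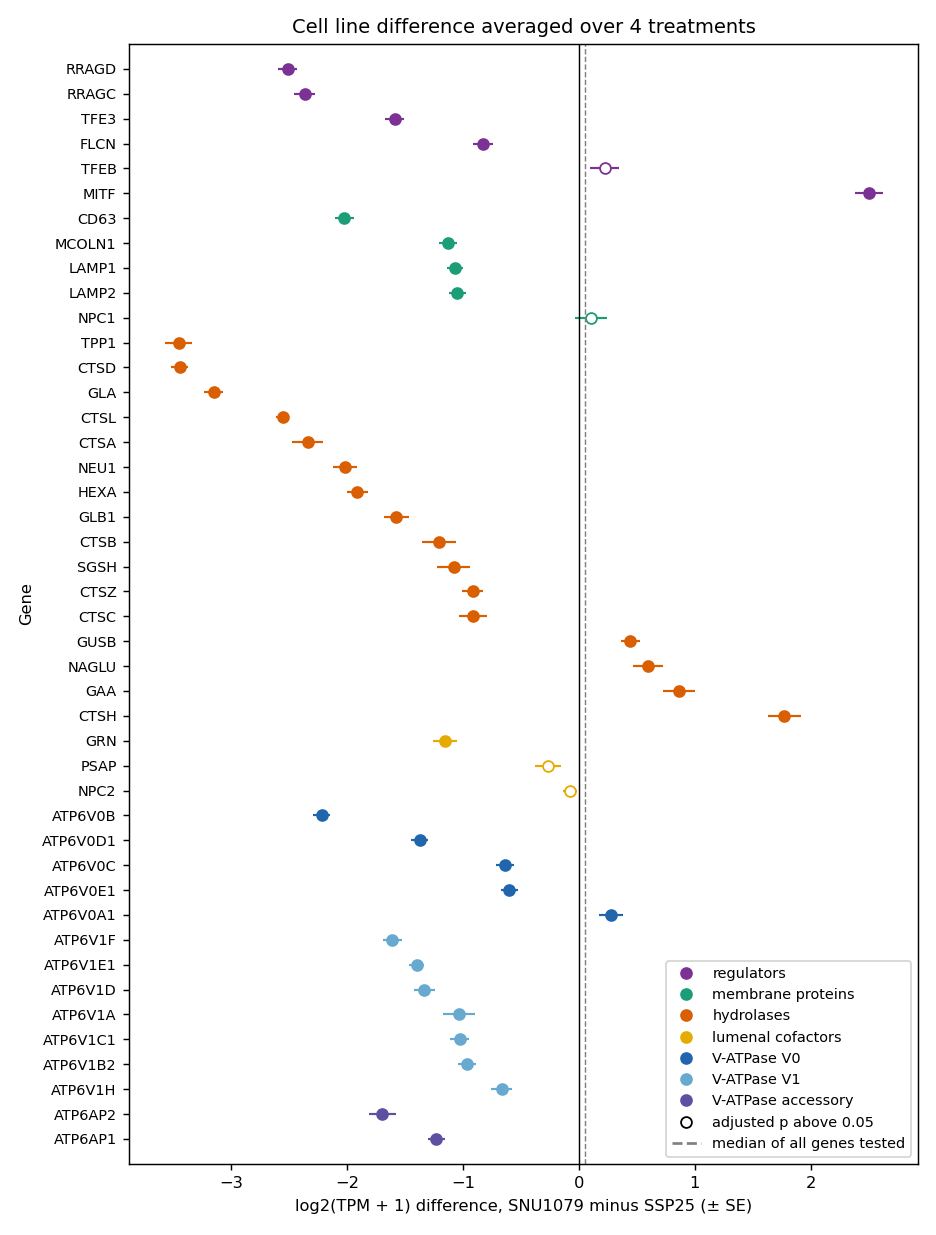
Difference of each gene between SNU1079 and SSP25 on the log2(TPM + 1) scale, averaged over 4 treatments (points, with SE as bars), by role; open points did not pass an adjusted p of 0.05, and the dashed line marks the median of all genes (0.05). The hydrolases spread from -3.46 (TPP1) to 1.77 (CTSH), whereas the V-ATPase genes lie between -2.22 and 0.28.

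The genes with the flanked E-box were spread over the differences. Their median between lines was -2.02 over 9 genes, and that of the 23 genes with a window and no match was -1.16. In the drug comparisons described below, these medians were -0.025 and -0.087 with mTORi and 0.094 and 0.009 with BETp. For the line difference in the mTORi effect they were -0.23 and -0.156. The gaps between these medians were not tested. GAA, which holds a pair of the elements, was higher in SNU1079. Among lysosomal genes outside the module, 22 of 34 other hydrolases and cofactors were lower in SNU1079 and 10 were higher, from CTSS (-5.19), the cathepsin of antigen-presenting cells, and ACP5 (-2.92) to CTSK (1.66) and HYAL1 (4.11). Of 20 other membrane and sorting genes, 14 were lower and 4 higher, IGF2R (-2.43), the receptor that carries mannose-6-phosphate hydrolases, and SLC17A5 (-2.31) at one end, and LAPTM4B (0.50) and GNPTAB (0.76) at the other. Of 8 other V-ATPase genes, 3 were lower and 3 higher, with ATP6V0D2 at -1.93 and ATP6V1G1 at -1.46, ATP6V1G2 at 1.33 and ATP6V1E2 at 1.94. Of 11 other genes in a list of Rag, Ragulator and related genes, 7 were lower and 2 higher. RRAGA was at -1.24 and LAMTOR1 at 1.10. TFEC and FNIP1, which are neither Rag nor Ragulator subunits, were at -1.43 and 0.28.

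The drug comparisons asked whether removal of BET proteins or inhibition of mTOR moved the module in both lines. None of the 44 genes passed the test in any of them. With BETp present against absent, limma called 0 members (1.82% of all genes were called, 0.461% higher and 1.36% lower). At an unadjusted p below 0.05 there were 10 members (22.7%), beside 22.8% of all genes, and 8 in a robust limma fit without the intensity trend. The members' median was 0.024, beside -0.076 for all genes, and was -0.002 without the SNU1079 BETp library and -0.024 without the SNU1079 mTORi library.

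NEU1 came nearest to the threshold with BETp. It was 85.1, 122, 75.5 and 137 TPM in SNU1079 and 384, 468, 383 and 440.4 TPM in SSP25, so that within each line both libraries with BETp were above both without it. The difference was 0.46 ± 0.10 SE (limma adjusted p = 0.0641), and the adjusted p was 0.0489 when only genes at 5 TPM or more were tested. SGSH was 22.2, 25.0, 18.0 and 24.4 TPM in SNU1079 and 38.2, 51.4, 36.8 and 74.3 TPM in SSP25, with the highest value in SSP25 under BETp + mTORi (0.50 ± 0.14 SE, limma adjusted p = 0.11). GUSB was 59.7, 43.6, 62.9 and 45.3 TPM in SNU1079 and 41.7, 38.1, 41.2 and 32.2 TPM in SSP25, below its levels without BETp in both lines (-0.34 ± 0.084 SE, limma adjusted p = 0.0774). CTSH had the furthest difference below 0 (-0.40 ± 0.14 SE, limma adjusted p = 0.161), and in SSP25 it was 25.0 and 19.2 TPM with BETp against 33.4 and 35.6 TPM without. In SNU1079 it was 90.1 TPM with BETp against 127 with vehicle, but 91.7 TPM with both agents against 82.8 with mTORi.

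By role, the hydrolases were split with BETp, 8 above 0 and 8 below, while 12 of 14 V-ATPase genes were above 0. Of all 16060 genes, 5793 were above 0. Of 8 other V-ATPase genes, outside the module, 3 were above 0 and 5 below, from ATP6V0D2 (-0.91) to TCIRG1 (0.18). Their median was -0.092. Among the 14 V-ATPase genes of the module, those with an unadjusted p below 0.05 were ATP6V0E1 (0.23 ± 0.073 SE), ATP6V0D1 (0.22 ± 0.075 SE) and ATP6V1D (0.21 ± 0.089 SE). The first 2 are of the V0 sector and ATP6V1D of V1. ATP6V1A, the catalytic subunit, was at 0.21 ± 0.14 SE and ATP6V1B2, its non-catalytic partner, at -0.15 ± 0.078 SE. Among the cofactors PSAP was highest (0.17 ± 0.11 SE) and GRN lowest (0.020 ± 0.10 SE), and the accessory subunits ATP6AP1 and ATP6AP2 were at 0.16 and 0.062. Of the V0 genes in the module, ATP6V0B was lowest at -0.043 ± 0.074 SE. Of the regulators, TFEB was lowest (-0.28 ± 0.12 SE, limma adjusted p = 0.227) and RRAGC highest (0.094 ± 0.094 SE), and of the membrane proteins LAMP2 was highest (0.16 ± 0.073 SE).

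Counted by direction alone, with no test, 8 members (18.2%) were higher with BETp in all 4 within-line pairs, against 8.88% of all genes. They were NEU1, SGSH, PSAP, NPC2, ATP6V0D1, ATP6V0E1, ATP6V1F and ATP6AP1. After quantile normalization there were 15 (34.1%, all genes 16.5%), and after rescaling to transcripts outside mitochondrial, ribosomal protein and ferritin genes 13 (29.5%, 13.1%). TFEB, CTSL, GUSB and ATP6V1B2 (9.09%) were lower in all 4 pairs, against 23.2% of all genes. Another 7 (15.9%, all genes 5.66%) were higher in both SNU1079 pairs and lower in both SSP25 pairs, and 2 (4.55%, 4.53%) had the reverse. The share of mitochondrial transcripts was higher with BETp in all 4 pairs, at 17.1% against 14.4% and 19.2% against 15.3% in SNU1079 and at 7.22% against 5.99% and 10.1% against 8.64% in SSP25, and its part in these values was not tested beyond the rescaling.

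NPC1 was the lowest membrane protein with BETp (-0.34 ± 0.14 SE, limma adjusted p = 0.2). It was 199, 131, 158 and 95.2 TPM in SNU1079, and 139, 134, 125 and 127 TPM in SSP25. In SNU1079 its level under BETp + mTORi was 47.8% of vehicle, and in SSP25 91.7%. The mean BETp effect was -0.66 in SNU1079 and -0.013 in SSP25, a difference between lines of -0.65 ± 0.097 SE (limma adjusted p = 0.184). For this test of line differences in the BETp effect, limma called 0 members and 0.00623% of all genes, with 13 members (29.5%) at an unadjusted p below 0.05 beside 12.4% of all genes, 6 or 7 when any single library was left out and 4 in the robust fit. CTSC (0.57 ± 0.12 SE), ATP6V1A (0.56 ± 0.13 SE) and CTSA (0.52 ± 0.14 SE) were furthest in the other direction.

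With mTORi present against absent, limma called 0 members (1.05% of all genes were called, 0.162% higher and 0.884% lower). There were 9 members (20.5%) at an unadjusted p below 0.05, beside 22.0% of all genes, and 7 in the robust fit. The members' median was -0.059 and that of all genes -0.114, with 30 of 44 members below 0 beside 73.1% of all genes. The direction turned with the scaling, to a median of 0.040 with 17 below 0 after quantile normalization and of 0.032 with 18 below 0 after the rescaling. All 6 regulators were below 0, and 5 of 6 after quantile normalization. TFEB stood furthest out (-0.52 ± 0.12 SE, limma adjusted p = 0.077). Its level under mTORi was 52.4% of vehicle in SNU1079 and 90.3% in SSP25, and under BETp + mTORi 46.1% and 61.6%. The 2 libraries with mTORi were below the 2 without it in each line, and the level with both agents was the lowest of each line. TFE3 was -0.29 ± 0.079 SE (limma adjusted p = 0.0919), lower with mTORi in each line, and MITF was nearest 0 (-0.087 ± 0.12 SE).

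Hydrolases went both ways with mTORi, 7 above 0 and 9 below, but 11 were above 0 after quantile normalization and 12 after the rescaling. GLA (-0.35 ± 0.082 SE, limma adjusted p = 0.076), CTSL (-0.21 ± 0.057 SE, limma adjusted p = 0.0934) and CTSC (-0.39 ± 0.12 SE, limma adjusted p = 0.119) were lower in all 4 within-line pairs. CTSC, which activates serine proteases of granules, was 72.0, 76.3, 56.2 and 56.2 TPM in SNU1079 and 162, 121, 134 and 85.2 TPM in SSP25. GAA was the highest hydrolase (0.18 ± 0.14 SE). The 3 cofactors were above 0, with NPC2 at 0.19 ± 0.061 SE, GRN at 0.29 ± 0.10 SE (limma adjusted p = 0.159) and PSAP at 0.10 ± 0.11 SE. GRN was 463, 506, 484 and 555 TPM in SNU1079 and 936, 949, 1449.9 and 1208 TPM in SSP25, and its 2 highest values were those of SSP25 with mTORi.

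Of the V-ATPase genes, 13 of 14 were below 0 with mTORi, beside 73.1% of all genes. Below 0 were 6 of 14 after quantile normalization and 7 of 14 after the same rescaling. Those scalings moved the median of all genes from -0.114 to 0.00 and -0.042. ATP6V0A1 (-0.36 ± 0.10 SE, limma adjusted p = 0.101) and ATP6V1A (-0.37 ± 0.14 SE, limma adjusted p = 0.17) were furthest below. ATP6V0C, a second ring proteolipid, and ATP6V1E1 were nearest 0 in their sectors (-0.051 and -0.029), and changed sign under both scalings. ATP6AP1 was at -0.10 and ATP6AP2 at 0.062. The 8 other V-ATPase genes, outside the module, were split with mTORi, 4 above 0 and 4 below, with a median of -0.037. They ran from ATP6V0D2 (-0.255 ± 0.289 SE) to ATP6V1G1 (0.21 ± 0.059 SE, limma adjusted p = 0.102). Of the membrane proteins NPC1 was lowest (-0.25 ± 0.14 SE) and MCOLN1 highest (0.057 ± 0.077 SE).

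**Figure D4:**
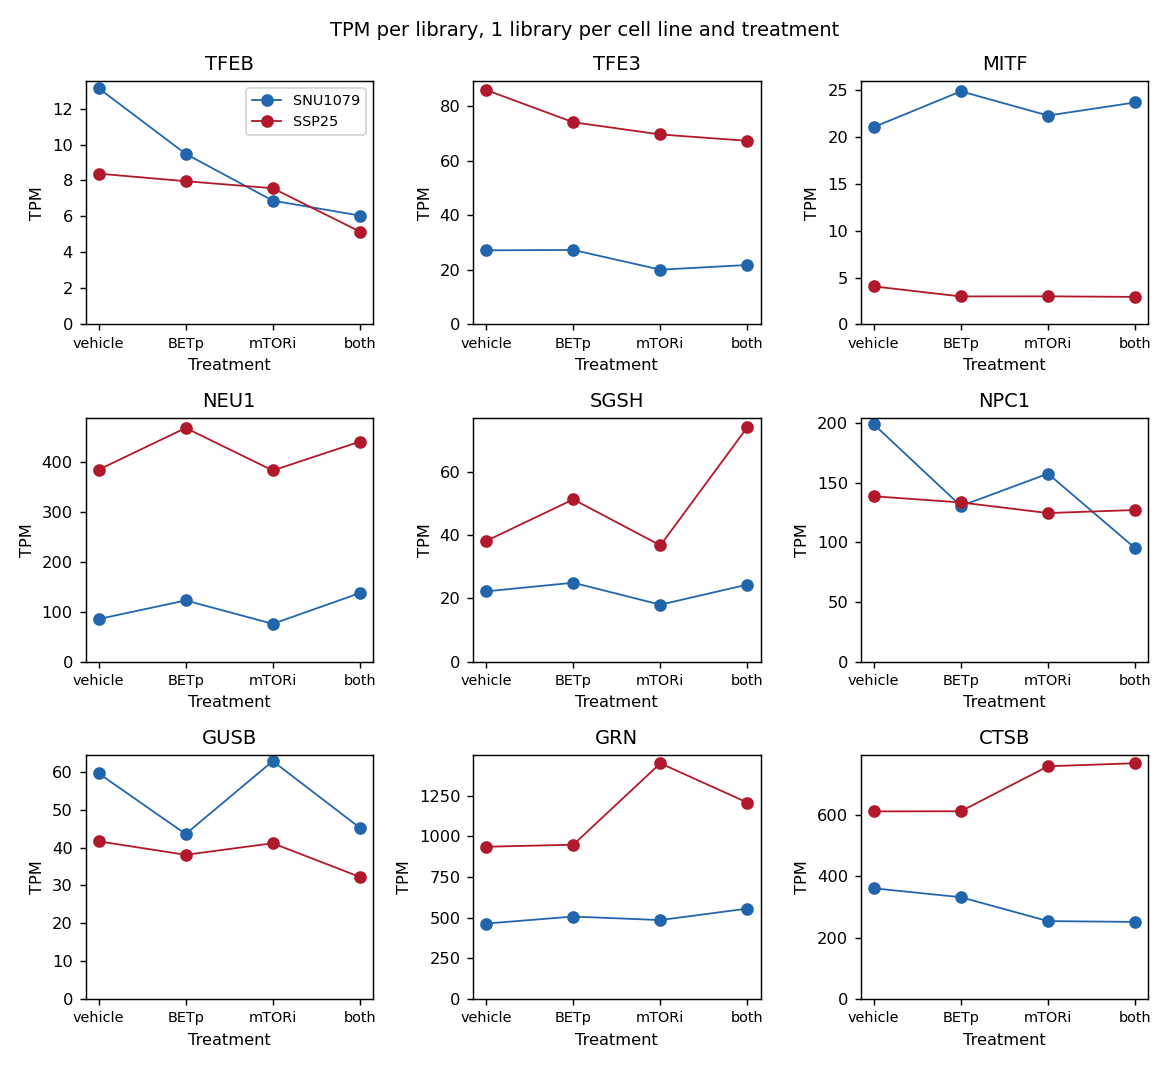
TPM of 9 genes in each library (1 point per library, lines join the treatments of a cell line; the y axis starts at 0), chosen after their values were seen. TFEB is at 13.1 TPM with vehicle and 6.05 TPM with both agents in SNU1079, and the SSP25 values are 8.38 and 5.16 TPM, NEU1 is higher in the libraries with BETp, and CTSB is lower with mTORi in SNU1079 and higher in SSP25.

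The combination against vehicle gave 0 called members in limma (1.81% of all genes were called, 0.293% higher and 1.52% lower), 13 members (29.5%) at an unadjusted p below 0.05 beside 25.8% of all genes, and 7 in the robust fit. The 13 became 4 or 8 without the vehicle library of SNU1079 or SSP25, and 5 or 7 without the combination library of the same lines. The members' median was -0.009, beside -0.190 for all genes. It was 0.174 after quantile normalization (all genes 0.001) and 0.142 after the rescaling (-0.068). CTSL (-0.41 ± 0.093 SE, limma adjusted p = 0.066), TFEB (-0.81 ± 0.19 SE, limma adjusted p = 0.0717) and CTSC (-0.64 ± 0.18 SE, limma adjusted p = 0.0946) had the smallest adjusted p. The single agents against vehicle gave 0 members each (0.00623% of all genes for BETp and 0.0125% for mTORi), with 3 members (6.82%) at an unadjusted p below 0.05 in each, beside 8.90% and 10.3% of all genes. Adding mTORi to BETp and adding BETp to mTORi also gave 0 members (0.00% and 0.0125% of all genes), again with 3 (6.82%) below 0.05, beside 11.5% and 13.4%. These comparisons share libraries. A departure of the combination from the sum of the single agents was called for 0 members and 0.00% of all genes by limma. At an unadjusted p below 0.05 there were 0 members, beside 2.0% of all genes, and 0 in the robust fit. The SEs of the members ran from 0.131 (CTSL) to 0.315 (CTSB), so that small departures could not be seen. The members' departures ranged from -0.18 to 0.42, with a median of 0.015.

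By its values the mTORi effect lay differently in the 2 lines, although no member passed the test of that difference given below. In SNU1079, 38 of 44 genes had a mean effect below 0, beside 11058 of all 16060 genes, with a median of -0.17 (all genes -0.12). In SSP25, 24 of 44 were above 0, beside 5265 of all 16060 genes, with a median of 0.018 (all genes -0.097). The hydrolases had medians of -0.17 and 0.20. The sum of the members was 0.746% of TPM with vehicle and 0.665% with mTORi in SNU1079, and 1.91% and 2.24% in SSP25. With BETp in both, the same step went from 0.784% to 0.755% and from 1.96% to 2.15%.

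A test of the difference between lines called 0 members and 0.00% of all genes in limma. It gave 19 members (43.2%) at an unadjusted p below 0.05, beside 14.2% of all genes, and 7 members in the robust fit. Leaving out a single library gave 8 members, or 12 where it was the BETp or the combination library of SNU1079, and quantile normalization gave 14. The median difference was -0.21 (all genes -0.026), and 37 of 44 members were below 0, beside 53.6% of all genes. After quantile normalization 34 were below 0, and after the rescaling 35. CTSB had the smallest p. It was 361, 332, 254 and 251 TPM in SNU1079 and 613, 613, 760.5 and 770.3 TPM in SSP25, lower with mTORi in both SNU1079 pairs and higher in both SSP25 pairs (-0.77 ± 0.080 SE, limma adjusted p = 0.213). PSAP was 1685, 1801, 1377 and 1772 TPM in SNU1079 and 1667, 1832, 2196 and 2302 TPM in SSP25 (-0.52 ± 0.11 SE, limma adjusted p = 0.238). GAA (-0.67 ± 0.12 SE), NAGLU (-0.58 ± 0.14 SE), ATP6AP2 (-0.51 ± 0.12 SE) and TPP1 (-0.49 ± 0.12 SE) followed.

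Counted by direction alone, with no test, 12 of 44 members (27.3%) were lower in both SNU1079 pairs and higher in both SSP25 pairs, against 7.43% of all genes. They were LAMP1, CTSB, CTSZ, GLB1, GAA, HEXA, NAGLU, TPP1, PSAP, ATP6V1F, ATP6AP1 and ATP6AP2. The count was 8 (18.2%, all genes 7.66%) after quantile normalization and 11 (25.0%, 8.11%) after the rescaling, but the genes changed. Of those named, CTSB, CTSZ, ATP6AP1 and ATP6AP2 kept the pattern under both scalings. PSAP kept it after quantile normalization only, and LAMP1, GLB1 and GAA after the rescaling only. HEXA, NAGLU, TPP1 and ATP6V1F kept it under neither. In the deposited TPM, GUSB alone had the opposite pattern (2.27%, 4.79% of all genes). Another 14 members (31.8%) were lower in all 4 pairs, against 26.2% of all genes, 5 of the 6 regulators among them. After quantile normalization these were 4 (9.09%, all genes 11.4%), with TFE3 of the regulators, and after the rescaling 6 (13.6%, 15.6%), with TFEB and TFE3. NPC2 and GRN (4.55%, 4.59% of all genes) were higher in all 4 pairs of the deposited TPM, where 7 members (15.9%, 11.8%) were after quantile normalization and 6 (13.6%, 8.73%) after the rescaling, NPC2 and GRN among them each time. The share of mitochondrial transcripts also moved with mTORi in both lines, from 14.4% to 15.3% and from 17.1% to 19.2% in SNU1079 and from 5.99% to 8.64% and from 7.22% to 10.1% in SSP25, and its part in these values was not tested beyond the rescaling.

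**Figure D5:**
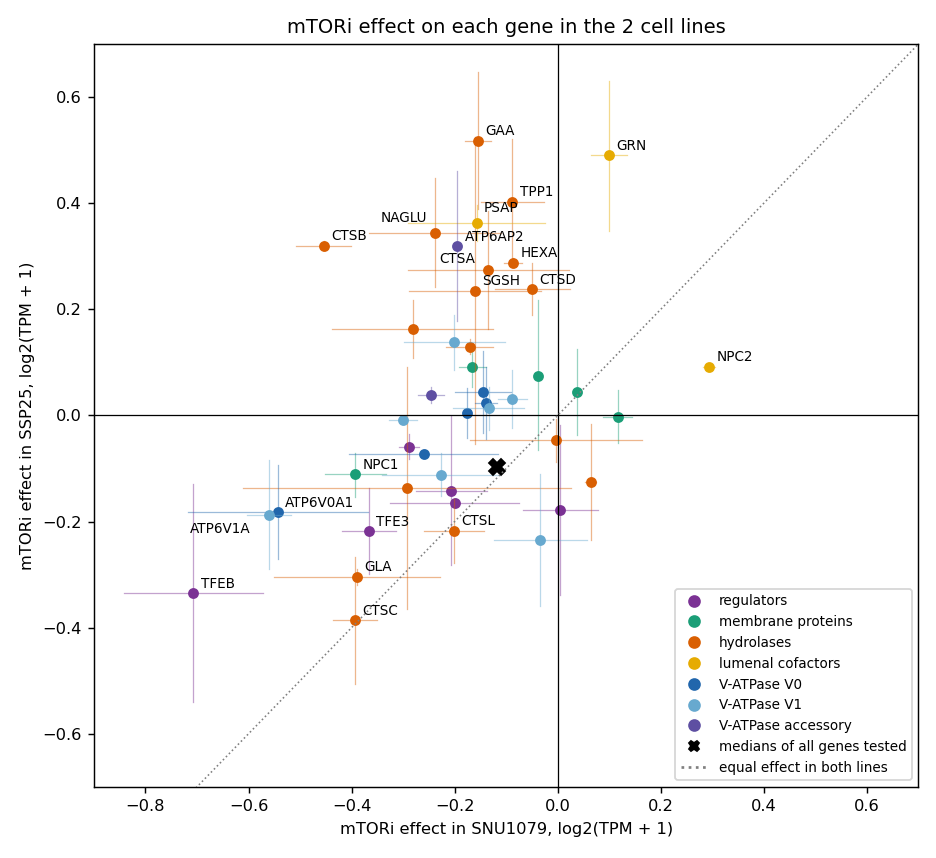
Mean mTORi effect on each gene in SNU1079 (x) and SSP25 (y), in log2(TPM + 1), with lines joining the 2 pairs of each line (mTORi against vehicle, and BETp + mTORi against BETp); the cross marks the medians of all genes (-0.12 and -0.097). Hydrolases and cofactors such as CTSB, GAA, TPP1 and PSAP sit in the upper left, and TFEB, TFE3, GLA and CTSC in the lower left.

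Other lysosomal genes lay in the same direction in this comparison, with 0 called. Of 34 other hydrolases and cofactors, 29 were below 0 with a median of -0.40 (all genes 53.6% below 0, median -0.026). An unadjusted p below 0.05 was found for 21 of them, beside 14.2% of all genes. SMPD1 (-0.87), the acid sphingomyelinase, and MANBA (-0.61) were lowest, and CTSV (0.81) was highest. Of 20 other membrane and sorting genes, 14 were below 0, with a median of -0.28, SLC17A5 (-0.76) and IGF2R (-0.51) lowest and CTNS (0.073) and MFSD8 (0.46) highest. Of the 11 Rag, Ragulator and related genes, 6 were below 0, with a median of -0.012 and 0 at an unadjusted p below 0.05. Of 8 other V-ATPase genes 7 were below 0, with a median of -0.10.

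In the averaged drug comparisons none of the genes in these other lists was called by limma. Of the other hydrolases, 8 of 34 had an unadjusted p below 0.05 with BETp and 7 with mTORi. For the membrane and sorting genes these counts were 5 and 4 of 20. They were 2 and 1 of 8 for the V-ATPase genes, and 5 and 0 of 11 for the Rag, Ragulator and related genes. The shares of all genes were 22.8% and 22.0%. CTSS was at -0.74 with BETp (limma adjusted p = 0.0553) and IDUA at 0.43. CLN3, a membrane protein of uncertain activity, was at -0.35 with BETp (limma adjusted p = 0.0675). CTSF was at 0.44 with mTORi (limma adjusted p = 0.0787), and LAPTM4B at -0.36 (limma adjusted p = 0.0632).

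Some loci limit what a value can show. On GRCh37, 14 of the 44 genes overlap another protein-coding gene, among them CTSD, GLA, CTSA, HEXA and NPC1, and whether the counting used strand is not given in the sources used here. CTSD lies on chromosome 11 (chr11:1773982-1785803, minus strand) and TPP1 on the same chromosome (chr11:6633999-6640679, minus strand). TFEB lies at chr6:41651716-41703997 on the minus strand, NEU1 at chr6:31825436-31830682 on the minus strand, and GAA at chr17:78075332-78093680 on the plus strand. None of these last 4 genes overlaps another coding gene.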

How the data were processed

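RNA-seq libraries (dUTP, strand-specific) were made from SNU1079 and SSP25 after 48 hours with vehicle, BETp, mTORi or BETp + mTORi, 1 library each. The deposited values are TPM per gene, calculated by the authors in 1 table per cell line. GRCh37, DESeq2 and edgeR are named in the submitters' processing notes without versions, and for the aligner, annotation and strand setting the sources used here give nothing. Groups were taken from the labels.

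A gene entered the tests when 2 or more libraries held it at 1 TPM or above, and log2(TPM + 1) was fitted with limma 3.58.1 (R 4.3.3; eBayes with trend; Benjamini-Hochberg over 16060 genes, called at 0.05, two-sided). Cell line, BETp presence and mTORi presence were terms of the averaged comparisons, treatment and cell line of the pairwise ones, and line-by-drug terms of the line differences. Libraries of a line were paired by the cell line, which the labels state, so that line was the replicate block of the drug comparisons. Fold changes on this scale understate those of low genes. The fit was tested on simulated data.

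Promoter windows came from RefSeq (GRCh38.p14) and gene positions from GENCODE (GRCh37). The members and the gene lists were chosen with earlier results of these data known. Named in full were up to 12 called members per comparison by adjusted p, then the furthest member of each role in each direction by the averaged drug effects. In the line comparison the 2 furthest of each other list in each direction were named. In the drug comparisons not all of the furthest genes of these lists were named. GUSB, NEU1, CTSB and others near the threshold were named after their values were seen, and counts of direction within lines were added then. Alternatives were quantile normalization, a pseudocount of 0.1, testing every gene or those at 5 TPM, a rescaling without mitochondrial, ribosomal protein and ferritin genes, robust eBayes without trend, no replicate block, and leaving out each library. No molecular counts were recoverable from TPM, so intervals for counting error were not given.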

Additional observations from a re-analysis of the deposited data

How the results depend on the processing

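The number of members called was 39 to 43 for the line comparison under every alternative run, 39 to 40 when single libraries were left out, and 0 for every drug comparison, except that BETp present against absent gave 1 (NEU1) with the filter at 5 TPM. Without the replicate block (the pairing by cell line), 0 members and 0 of all 16060 genes were called in any drug comparison. The line difference then entered the residual, so that this setting does not bear on the members. The median line difference was -0.92 after quantile normalization and -0.89 after the rescaling, against -1.11. Members near 0 changed sign. Leaving out single libraries gave, with BETp, -0.109 to 0.012 for ATP6V0B, -0.073 to 0.14 for GRN and -0.033 to 0.19 for ATP6AP2, and with mTORi -0.17 to 0.019 for MITF, -0.125 to 0.018 for ATP6V0C, -0.073 to 0.009 for ATP6V1E1 and -0.066 to 0.157 for ATP6AP2. Quantile normalization gave 0.044 for ATP6V0B with BETp, and with mTORi 0.039 for MITF, 0.042 for ATP6V0C, 0.086 for ATP6V1E1 and 0.014 for ATP6AP1. The rescaling gave 0.016 for ATP6V0B, 0.042 for ATP6V0C and 0.064 for ATP6V1E1. The cause was not tested. Counts over all genes varied more. BETp present against absent called 292 genes, 202 with a pseudocount of 0.1, 21 with no filter, 476 with the filter at 5 TPM, 175 (112 higher) after quantile normalization against 74 higher of 292, 148 (68 higher) after the rescaling, 74 in the robust fit, 0 without the block and 37 to 224 without single libraries. mTORi present against absent called 168 (26 higher), and 18, 2, 483, 9 (3 higher), 38 (23 higher), 1, 0 and 1 to 7 in the same order. The combination against vehicle called 291, and 86, 2, 657, 21, 27, 9, 0 and 0 to 136. Depth is unknown in TPM, so its limit on low genes such as TFEB and MITF could not be measured.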
